A study of Mus musculus with 6 samples.

Results

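Reelin, its receptors Vldlr and Lrp8, the other receptor ligands apolipoprotein E and clusterin, and the receptor chaperone were followed in cerebella taken from male mice aged 6 weeks. The 6 genes (Reln, Vldlr, Lrp8, Apoe, Clu and Lrpap1) were taken by symbol from 24537 genes listed in each library. Expression had been measured by RNA-seq in 3 libraries labelled wild type, of strain C57BL/6, and in 3 heterozygous ones that carry a null allele of Reln and are labelled as strain Orl/BalbC. Series of values from a group are given in the order of replicates 1, 2 and 3. Each group has its own strain label, so genotype and labelled strain cannot be told apart. The labels do not describe the lesion of the null allele, and the values do not separate reads of the intact allele from reads of the null allele. Separate animals within a group are not stated by the labels, so p-values measure only the spread between these libraries, which may be technical. In whole cerebellum, fewer cells of a type and less RNA per cell cannot be told apart.

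Reelin is a large secreted glycoprotein that in the adult cerebellum comes mainly from granule cells. It binds the lipoprotein receptors Vldlr and Lrp8 (also called ApoER2), which pass the signal to the adaptor Dab1 and Src-family kinases; during development this pathway sets the position of Purkinje cells. Both receptors also bind lipoprotein-associated ligands, among them apolipoprotein E, the main lipid carrier made by brain astrocytes, and clusterin (apolipoprotein J). The receptor-associated protein encoded by Lrpap1 holds receptors of this family free of ligand in the endoplasmic reticulum until they leave it.

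All values are FPKM, fragments scaled to transcript length and to the size of the library, a level per length that can be set side by side between genes. The spacing of low values put the depth at roughly 22880000 to 28590000 reads per library. The tissue label was borne out by cerebellar markers in every library: the Purkinje cell gene Pcp2 stood between 122 and 175 FPKM and the granule cell gene Cbln3 between 166 and 203 FPKM. The choroid plexus, which lies against the cerebellum, was unevenly represented. Its 13 markers gave sums of 292, 1.44 and 161 FPKM (wild type) and 4.62, 166 and 8.23 FPKM (heterozygous), with Ttr, the transthyretin gene, at 273, 0.566 and 150 FPKM and at 3.15, 156 and 6.43 FPKM; Folr1 was listed at 0 in wild-type replicate 2. The whole distribution of FPKM also differed in height. Median-of-ratios factors, which measure how high the typical gene stands in a library, were 1.08, 0.842 and 0.970 in wild type and 1.01, 1.14 and 0.987 in heterozygous cerebellum, lowest in wild-type replicate 2 and highest in heterozygous replicate 2.

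The RefSeq promoter table for GRCm38.p6, the assembly also called mm10, held 5 of the 6 genes; Clu was not among them. The 250 bases before the transcription start of Reln (chr5:22344706-22344955, minus strand) and Apoe (chr7:19699189-19699438, minus strand) are printed because these genes stand at the low and the high end of the family's levels; capitals mark matches to a GC box or an E-box on either strand.
Reln: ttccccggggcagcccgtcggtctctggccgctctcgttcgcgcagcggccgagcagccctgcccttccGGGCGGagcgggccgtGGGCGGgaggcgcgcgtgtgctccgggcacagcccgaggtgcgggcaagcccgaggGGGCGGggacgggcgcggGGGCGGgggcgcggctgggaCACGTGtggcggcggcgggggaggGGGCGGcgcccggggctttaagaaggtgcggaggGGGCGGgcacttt
Apoe: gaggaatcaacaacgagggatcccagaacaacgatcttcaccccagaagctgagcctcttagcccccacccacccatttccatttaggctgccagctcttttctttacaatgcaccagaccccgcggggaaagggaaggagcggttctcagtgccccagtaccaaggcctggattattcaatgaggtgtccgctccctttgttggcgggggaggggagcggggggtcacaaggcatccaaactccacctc
The Reln stretch was 80.0% G and C and held 37 CpG dinucleotides, more than 97.8% of the 32851 promoter stretches in the table, where the median was 6. It held 6 matches to the GC box GGGCGG and 1 to the E-box CACGTG, with no overlap between matches, while 32.7% and 6.02% of all stretches held at least 1 of each. The Apoe stretch was 57.2% G and C, held 8 CpG dinucleotides and had no match to either. Among the other genes, Lrpap1 had 14 CpG dinucleotides and 5 GC box matches, Lrp8 18 CpG dinucleotides and Vldlr 5, the latter 2 without a GC box. Only 1 promoter entry per gene was used. The Lrp8 stretch (chr4:107802635-107802884) lies inside the GENCODE span of that gene given below, so it is not upstream of that span. The Lrpap1 stretch (chr5:35105700-35105949) overlaps the span of its gene in part. A count of 5 or more GC boxes was found in 1.93% of all stretches. None of the 5 genes held TATAAA on either strand, as 12.4% of all stretches did. The same was true of CCAAT, which 33.8% held, and of the AP-1 letters TGACTCA, which 4.46% held. These matches are letters in a window and do not show that a factor binds there.

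The mean levels of the 6 genes ran from 0.694 FPKM for Reln to 311 FPKM for Apoe and kept the same order in all 6 libraries, from Apoe through Clu, Lrpap1, Vldlr and Lrp8 down to Reln. Apoe lay above 99.96% of the genes read in all libraries. It exceeded Clu 9.999-fold to 12.002-fold within a library. Clu exceeded Lrpap1 2.69-fold to 3.95-fold, Lrpap1 exceeded Vldlr 1.94-fold to 2.62-fold, and Vldlr exceeded Lrp8 3.52-fold to 4.62-fold. Lrp8 and Reln were the closest neighbours, at 1.21-fold to 1.98-fold, and over all libraries the lowest Lrp8 value, 0.942 FPKM, lay just above the highest Reln value, 0.940 FPKM. The other neighbours were also separate in range over the 6 libraries. Approximate reads were worked out with the longest annotated transcript of each gene, so they and the counting errors are rough. By these, Reln rested on 155.3 to 314.5 per library (counting error 5.64% to 8.03%) and Lrp8 on 156.8 to 218.2 (6.77% to 7.99%). Vldlr rested on 714.2 to 1060.2, Lrpap1 on 612.3 to 962.4, Clu on 1006.6 to 1921.8 and Apoe on 8440.1 to 15021.5.

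The ligand itself was the only gene of the 6 with separate groups in the deposited values. Reln (ENSMUSG00000042453, chromosome 5, 21884454 to 22344702, minus strand) had wild-type values of 0.834, 0.771 and 0.940 FPKM and heterozygous values of 0.531, 0.509 and 0.580 FPKM. Every heterozygous library lay below every wild-type library, a pattern in that direction that 0.859% of the 8619 tested genes showed. The ratio of the means was 0.636, and 0.587 after median-of-ratios scaling, where the groups again did not overlap (5.66% of all tested genes stood apart in that direction). On the log2(FPKM + 0.1) scale the heterozygous mean was lower, with a difference of -0.57 (SE 0.15) and a 95% interval of -0.87 to -0.26. Over all genes this did not pass the test (limma adjusted p = 0.94, and 0.086 to 0.98 over the alternatives), and the two-sided exact permutation p was 0.1, the smallest that 3 against 3 libraries allow. No gene passed an adjusted p of 0.05 in limma among the 8619 with a mean of at least 0.5 FPKM (0%), and 213 had an unadjusted p under 0.05 (2.47%). Reln was among these 213 genes. Apoe and Lrpap1 were not, though their adjusted value was also 0.94, so that value does not order these genes. The span of Reln holds 7 other annotated genes, 4 of them on the opposite strand. Nothing in the sources used here gives the strand setting of the authors' quantification.

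**Figure D1:**
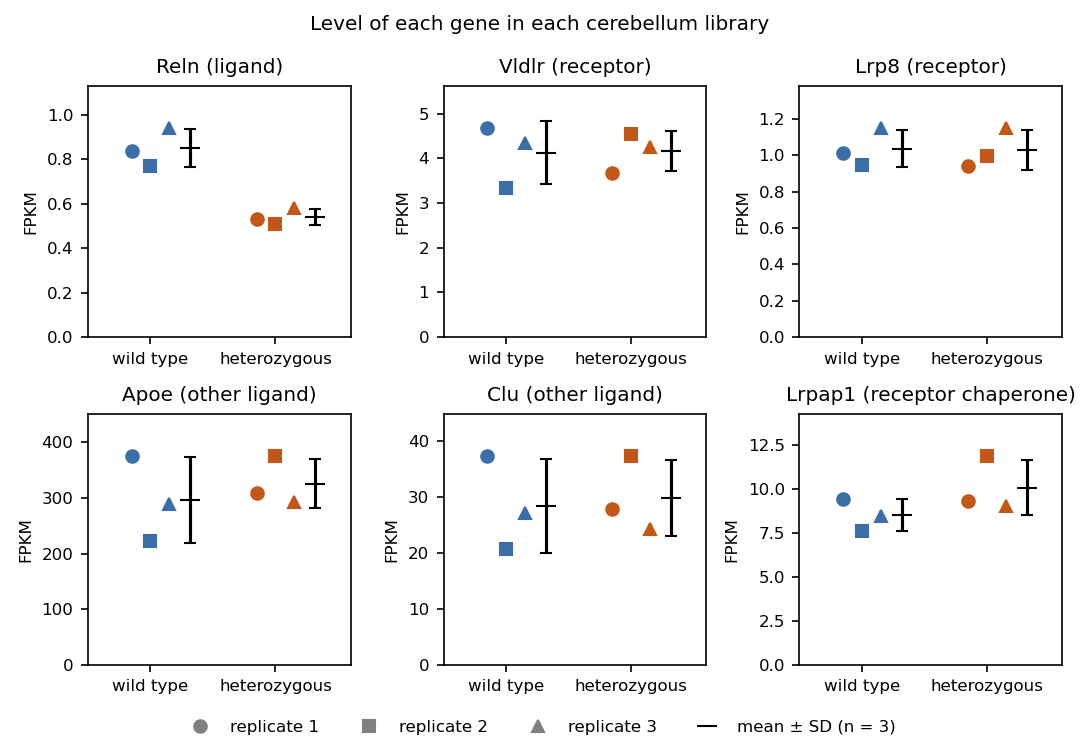
FPKM of the 6 genes in each library (points, shape by replicate number; blue wild type, orange heterozygous), with the mean and SD of each group (n = 3). The Reln values of heterozygous libraries, 0.509 to 0.580 FPKM, lie below those of wild type, 0.771 to 0.940 FPKM, and the groups of the other 5 genes overlap.

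The 2 receptors had nearly the same mean deposited FPKM in both groups, and somewhat lower heterozygous means after median-of-ratios scaling. Vldlr (ENSMUSG00000024924, chromosome 19, 27216484 to 27254231, plus strand) had wild-type values of 4.68, 3.34 and 4.36 FPKM and heterozygous values of 3.68, 4.55 and 4.26 FPKM. Its groups overlapped throughout, with wild-type replicates at both the top and the bottom. The log2 difference was 0.021 (SE 0.16), with a 95% interval of -0.31 to 0.36 (limma adjusted p = 0.98), and -0.096 after median-of-ratios scaling. Lrp8 (ENSMUSG00000028613, chromosome 4, 107802261 to 107876840, plus strand) had wild-type values of 1.01, 0.948 and 1.152 FPKM and heterozygous values of 0.942, 0.999 and 1.151 FPKM. Replicate 3 was highest in each group, and the ranges were nearly the same. Its log2 difference was -0.0097 (SE 0.14), with a 95% interval of -0.31 to 0.29 (limma adjusted p = 0.99), and -0.12 after median-of-ratios scaling, a ratio of means of 0.916. On the scale of FPKM + 0.1, these intervals cover ratios of 0.804 to 1.28 for Vldlr and 0.805 to 1.23 for Lrp8. Antisense genes Lrp8os1 and Lrp8os2 lie within the span of Lrp8 and could share its reads if strand was not used.

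The other ligands were abundant and spread widely within each group. Apoe (ENSMUSG00000002985, chromosome 7, 19696109 to 19699188, minus strand) had wild-type values of 376, 223 and 290 FPKM and heterozygous values of 309, 375 and 292 FPKM. Wild-type replicates held both the highest and the lowest value. The log2 difference was 0.16 (SE 0.20), with a 95% interval of -0.25 to 0.57 (limma adjusted p = 0.94), and 0.038 after median-of-ratios scaling or 0.022 after quantile normalization. Clu (ENSMUSG00000022037, chromosome 14, 65968483 to 65981547, plus strand) had wild-type values of 37.4, 20.7 and 27.2 FPKM and heterozygous values of 27.9, 37.5 and 24.3 FPKM. Wild-type replicate 1 and heterozygous replicate 2 were again nearly equal at the top, and wild-type replicate 2 was again lowest. Its log2 difference was 0.089 (SE 0.21), with a 95% interval of -0.34 to 0.52 (limma adjusted p = 0.95), and -0.031 after median-of-ratios scaling.

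The receptor chaperone stood somewhat higher in heterozygous libraries, within the spread of the deposited values (4.77% of all tested genes had every heterozygous library above every wild-type one; Lrpap1 did not). Lrpap1 (ENSMUSG00000029103, chromosome 5, 35091501 to 35105766, minus strand) had wild-type values of 9.46, 7.65 and 8.45 FPKM and heterozygous values of 9.32, 11.9 and 9.04 FPKM. Heterozygous replicate 2 was highest and wild-type replicate 1 second, so the groups overlapped. The log2 difference was 0.24 (SE 0.16), with a 95% interval of -0.10 to 0.57 (limma adjusted p = 0.94). Median-of-ratios scaling brought the wild-type values to 8.78, 9.08 and 8.72 and the heterozygous values to 9.22, 10.5 and 9.17. On that scale the groups no longer overlapped, by a narrow margin, as in 4.79% of all tested genes in this direction, and the log2 difference was 0.12 (limma adjusted p = 0.79).

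The 6 differences have to be read against a shift of all genes. As deposited, the heterozygous mean was the higher for 80.6% of tested genes and the median difference was 0.10; after median-of-ratios scaling these were 45.2% and -0.011. Against 0.10, Reln, Vldlr, Lrp8 and Clu lay below the typical gene and Apoe and Lrpap1 above it. After scaling, Reln, Vldlr, Lrp8 and Clu were still below and Apoe and Lrpap1 above.

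**Figure D2:**
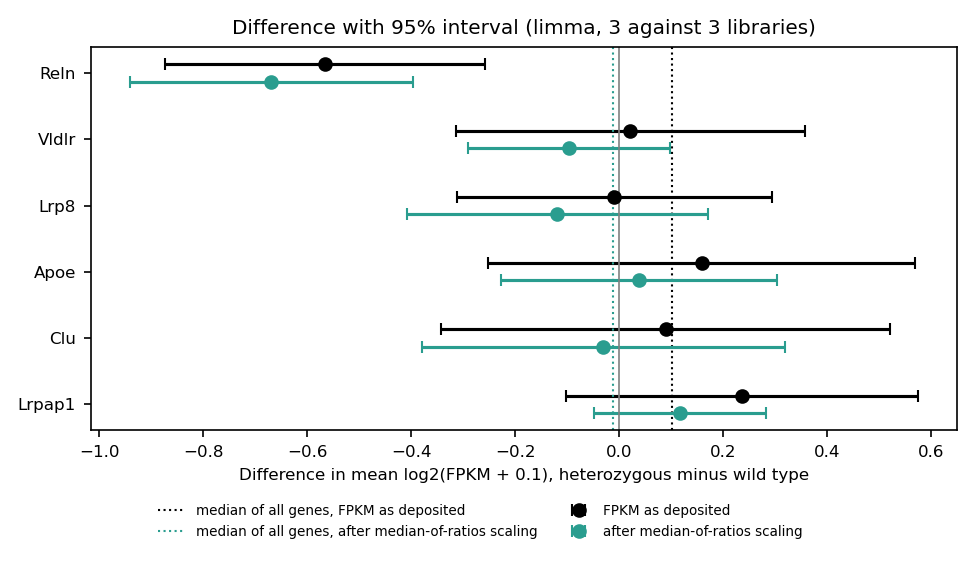
Heterozygous minus wild-type mean of log2(FPKM + 0.1) for each gene with its 95% interval from limma (3 libraries per group), as deposited (black) and after median-of-ratios scaling (green); dotted lines give the median of all 8619 tested genes. The Reln interval, -0.87 to -0.26 as deposited, lies below 0, and the intervals of the other 5 genes span 0.

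Ratios of 2 genes within a library are free of the height of that library, and 7 were compared. Relative to reelin, its receptors and the other ligands all had higher mean ratios in heterozygous cerebellum. As deposited, Reln was lower and 80.6% of tested genes had a higher heterozygous mean, so this direction was set largely by Reln. How many other genes part the groups in their ratio to Reln was not tested. Lrp8 to Reln was 1.21, 1.23 and 1.22 (wild type) and 1.77, 1.96 and 1.98 (heterozygous). The groups were well apart, with the lowest heterozygous ratio 1.44 times the highest wild-type ratio. The wild-type ratios varied by 0.618%, far less than the counting error of either gene, so that closeness says nothing about how tightly the genes are matched. Vldlr to Reln was 5.61, 4.33 and 4.63 (wild type) and 6.93, 8.94 and 7.34 (heterozygous), also without overlap.

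Apoe to Reln lay above the wild-type range in each heterozygous library, at 582, 736 and 503 against 450, 290 and 308. Clu to Reln overlapped, at 52.6, 73.6 and 41.9 against 44.8, 26.9 and 28.9. Geometric mean ratios were 1.56-fold (Lrp8), 1.59-fold (Vldlr), 1.75-fold (Apoe) and 1.67-fold (Clu) of those in wild type. For the 3 ratios without overlap the two-sided exact permutation p was 0.1, the smallest possible, and 0.23 after Benjamini-Hochberg adjustment over the 7 ratios; for the other 4 the adjusted p ran from 0.28 to 0.8. The 4 ratios to Reln share the Reln values, so they are not separate evidence. They also do not show a change in the receptors or the other ligands.

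Ratios that leave reelin out overlapped between the groups. Vldlr to Lrp8 was 4.62, 3.52 and 3.78 in wild type against 3.91, 4.55 and 3.70 (exact permutation p = 0.8, n = 3 each). The highest and the lowest ratio were both from wild type. Apoe to Clu was 10.05, 10.8 and 10.7 in wild type against 11.1, 9.999 and 12.002 (exact permutation p = 0.5, n = 3 each). Lrpap1 to the sum of both receptors was 1.66, 1.79 and 1.54 in wild type against 2.02, 2.15 and 1.67 (exact permutation p = 0.2, n = 3 each). Heterozygous replicates 1 and 2 lay above all wild-type libraries, and heterozygous replicate 3 among them.

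**Figure D3:**
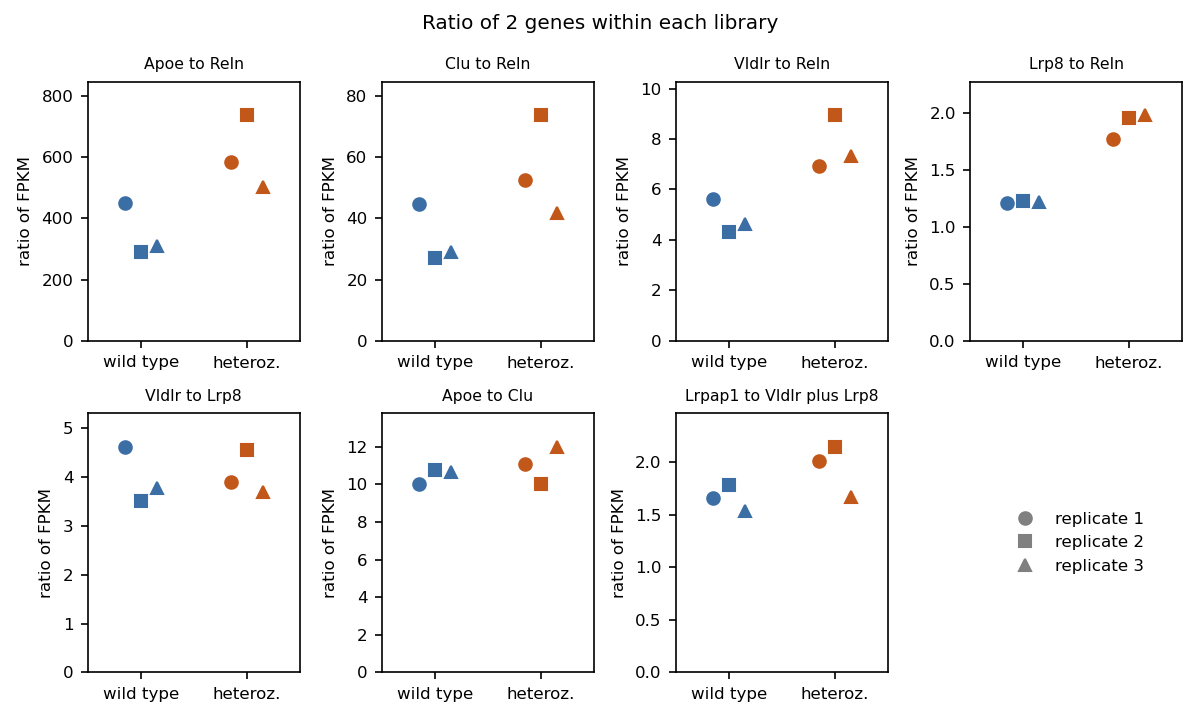
Ratio of FPKM between 2 genes (or between Lrpap1 and the sum of both receptors) in each library, shape by replicate number, blue wild type and orange heterozygous. Lrp8 to Reln lies at 1.21 to 1.23 in wild type and at 1.77 to 1.98 in heterozygous libraries, while Vldlr to Lrp8 and Apoe to Clu overlap.

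Library-to-library variation set the genes apart from each other. Within the groups, Clu had a coefficient of variation of 26.2%, higher than 95.2% of tested genes, against a median of 12.3% for the 500 genes with a mean within 2-fold of its own. Apoe followed at 20.1%, with a median of 14.2% for the 25 genes of like level. Vldlr (14.2%) and Lrpap1 (13.9%) were near the 12.6% of genes at their levels. Lrp8 (10.3%) and Reln (9.48%) were below the 12.7% and 12.9% of theirs as deposited, but not after median-of-ratios scaling, where Lrp8 varied by 13.6% within the groups against 8.41% for genes of like level and Reln by 12.4% against 8.73%. Median-of-ratios scaling brought the median coefficient over the 6 libraries from 12.8% to 7.997% for all tested genes, from 18.6% to 9.44% for Apoe, from 12.7% to 7.62% for Vldlr and from 15.5% to 7.003% for Lrpap1. Clu still varied by 14.7% after scaling, against 6.89% for genes of like level. The 2 lowest genes went the other way, Lrp8 from 9.18% to 13.1% and Reln from 25.8% to 30.5%.

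Apoe and Clu were high and low in the same libraries as deposited, an order that most other marker lists and the library factors largely shared. Among the 8618 other tested genes, ordered by likeness to Clu (the root mean square difference between centred log2 values over the 6 libraries), Apoe ranked 37, at 0.088, where the median gene was at 0.22. Markers of astrocytes and Bergmann glia, the radial astrocytes of the cerebellar cortex, moved with them: the 14 markers gave sums of 210, 139 and 180 FPKM (wild type) and 183, 221 and 186 FPKM (heterozygous), led by S100b and Aqp4. Wild-type replicate 1 and heterozygous replicate 2 were highest and wild-type replicate 2 lowest for this list, as for Apoe and Clu. As deposited, the same 3 libraries held these places for 9 oligodendrocyte markers (230, 146 and 175 FPKM in wild type against 191, 256 and 210 FPKM). They also did so for 8 endothelial markers (24.6, 14.4 and 18.4 against 16.9, 21.4 and 19.7 FPKM) and 11 Purkinje cell markers (273, 194 and 236 against 250, 264 and 263 FPKM), so the deposited order was not particular to glia. After median-of-ratios scaling, they still held these places for the astrocyte and Bergmann glia list and for oligodendrocyte markers. Purkinje cell sums were then highest in heterozygous replicate 3 (266 FPKM), and endothelial sums were lowest in heterozygous replicate 1 (16.7 FPKM). With the mean log2 level of the astrocyte and Bergmann glia list as a covariate, the difference was -0.015 for Apoe and -0.12 for Clu, in a fit where the median of all genes was 0.014. Microglia markers, 12 genes of another cell type that makes Apoe, gave sums of 18.3, 10.4 and 13.2 FPKM (wild type) and 14.5, 25.1 and 15.002 FPKM (heterozygous). Ependymal markers, 5 genes of the cells lining the ventricle, summed to 5.60, 2.13 and 3.599 FPKM and to 4.16, 4.29 and 3.01 FPKM. Both lists were also highest in wild-type replicate 1 and heterozygous replicate 2 and lowest in wild-type replicate 2. Interneuron and granule cell markers kept only part of this order. Interneuron sums were higher in heterozygous replicate 3 than in wild-type replicate 1, and granule cell sums were lower in heterozygous replicate 2 than in either other heterozygous library. The part of the microglia and ependymal lists in the Apoe and Clu values was not tested.

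Clu stood highest in 2 of the 3 libraries rich in choroid plexus markers. The third, wild-type replicate 3, had 161 FPKM of those markers and a Clu level of 27.2 FPKM, below the 27.9 FPKM of heterozygous replicate 1 with 4.62 FPKM of markers. Apoe to Clu was 10.05, 10.7 and 9.999 in the 3 libraries rich in these markers (wild-type replicates 1 and 3, heterozygous replicate 2) and 10.8, 11.1 and 12.002 in the other 3. This grouping mixes the genotypes, and how many other gene ratios part in the same way was not tested. The part of choroid plexus in the Apoe and Clu values was not tested beyond the covariate fit that follows. In that fit 3290 of the 8619 tested genes fell under 0.05 before adjustment, against 213 without the covariate. Low adjusted values were therefore common in it and do not single out any of the genes named. With the choroid plexus list as a covariate, the differences were 0.30 for Apoe (limma adjusted p = 0.10), 0.27 for Clu (adjusted p = 0.14), 0.32 for Lrpap1 (adjusted p = 0.086) and -0.55 for Reln (adjusted p = 0.086), in a fit where the median of all genes was 0.17. The lists hold markers of the cells that make reelin too: the 13 granule cell markers gave sums of 702, 615 and 656 FPKM (wild type) and 685, 662 and 690 FPKM (heterozygous), which overlapped; the part of any marker list in the Reln difference was not tested beyond these covariates.

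**Figure D4:**
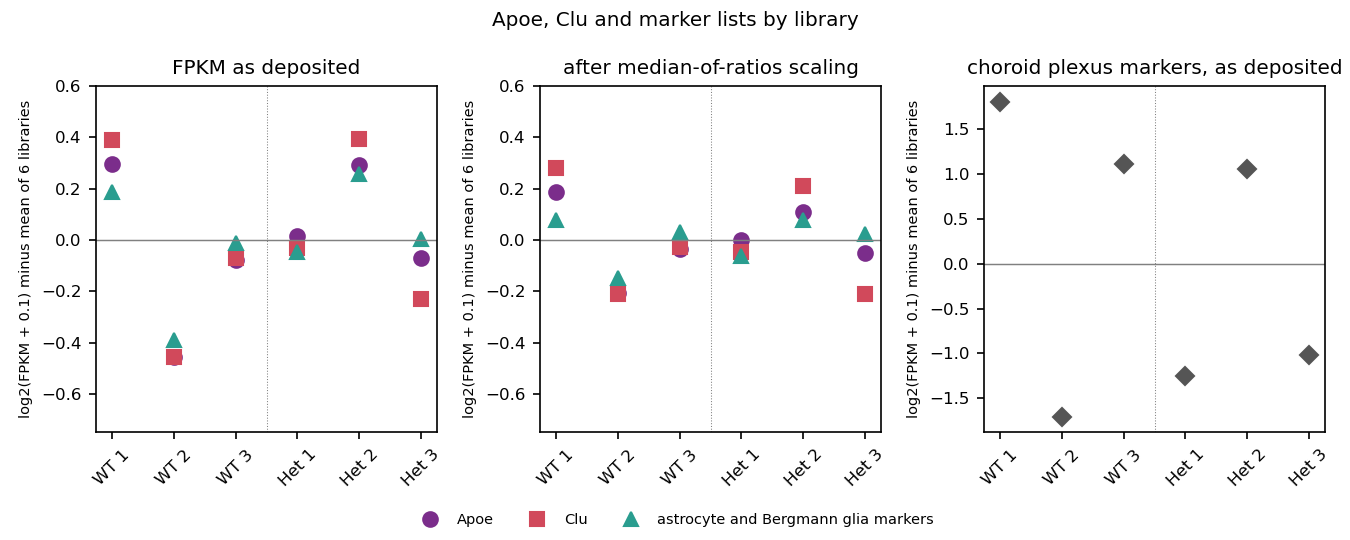
Level of Apoe, Clu and the mean of 14 astrocyte and Bergmann glia markers in each library (WT, wild type; Het, heterozygous), as log2(FPKM + 0.1) minus the mean of the 6 libraries, as deposited (left) and after median-of-ratios scaling (middle); the right panel gives the mean of 13 choroid plexus markers on a wider axis. As deposited, Apoe, Clu and the glial markers are lowest in wild-type replicate 2 and highest in wild-type replicate 1 and heterozygous replicate 2.

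Each of the 6 genes had other genes closer to its pattern than any of the remaining 5. For Reln the 3 most alike of 8618 genes were Clk1, a kinase of splicing factors (0.14), Ltbp3, which binds latent TGF-beta (0.16), and Gm996 (0.17). Lrp8 was at 0.28 and ranked 648, Vldlr 2133. Clk1 had wild-type values of 8.32, 6.19 and 7.72 FPKM and heterozygous values of 5.75, 5.45 and 5.67 FPKM. Vldlr was most like the metalloprotease gene Adam9 (0.017), the sodium channel gene Scn1a (0.019) and Cactin (0.019), while Lrp8 ranked 4788. Lrp8 was most like D430041D05Rik (0.025), the calcium/calmodulin kinase gene Camk4 (0.028) and 2700081O15Rik (0.030). Nearest to Apoe were Gnai2, a G protein subunit gene (0.024), Marcksl1 (0.030) and Chpf, an enzyme of chondroitin synthesis (0.039), with Clu at rank 414. Nearest to Clu were the acute-phase and reactive astrocyte gene Serpina3n (0.045), Aldh2 (0.047) and 5033406O09Rik (0.056). Lrpap1 was closest to Rnf187 (0.011), Grpel1 (0.012) and Pes1 (0.020). These orders rest on 6 libraries and are descriptions.

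The rest of the pathway was taken in 5 lists, and no gene of any list passed the test or had separate groups in the deposited values, against 5.63% of all tested genes without overlap. After median-of-ratios scaling, 3 tested genes of the lists, chosen here for that separation, stood apart and lower in heterozygous libraries (Furin, Lrp3 and Rap1b). On that scale 5.66% of all tested genes stood apart in that direction and 10.5% in either direction. As deposited, 80.6% of all tested genes had a higher heterozygous mean, the share to set beside the counts of each list below. Among 15 genes for further ligands, reelin-binding proteins and proteases that cleave reelin, 6 reached the minimum level, 5 with a higher and 1 with a lower heterozygous mean (median 0.11, against 0.10 for all genes). Selenop, which encodes the selenium carrier that Lrp8 takes up, was the most abundant, with means of 26.8 ± 5.3 (wild type) and 30.8 ± 4.4 FPKM (heterozygous; SD, n = 3 each), and had the largest difference, 0.21. Efnb3, an ephrin gene, came next in level at 4.30 ± 1.04 and 4.59 ± 0.40 FPKM, and Itga3, encoding a subunit of the reelin-binding integrin, had the only lower mean (-0.026). F-spondin (Spon1, 0.285 ± 0.053 and 0.313 ± 0.021 FPKM) and thrombospondin 1 (Thbs1, 0.402 ± 0.206 and 0.455 ± 0.007 FPKM), which also bind these receptors, were below the minimum. So was the reelin-cleaving protease gene Adamts3 (0.122 ± 0.023 and 0.120 ± 0.007 FPKM).

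Of 13 genes for receptor trafficking and turnover, 11 were tested, 9 higher and 2 lower (median 0.061). Snx17, which sorts these receptors back to the surface, stood at 7.35 ± 0.91 and 8.27 ± 1.54 FPKM (SD, n = 3 each) and had the largest difference, 0.16. The oxysterol receptor gene Nr1h2 stood at 7.45 ± 1.599 and 7.34 ± 0.63 FPKM, and Furin, a proprotein convertase gene, was lowest at -0.11. Mylip, the ubiquitin ligase that sends these receptors for degradation, stood at 0.703 ± 0.111 and 0.737 ± 0.108 FPKM (log2 difference 0.061).

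The other lipoprotein receptors of this family comprised 13 genes, of which 8 were tested, 5 higher and 3 lower (median 0.046). Lrp10 (4.27 ± 1.06 and 4.40 ± 0.74 FPKM) and Lrp1, a large endocytic receptor for Apoe (4.39 ± 0.61 and 3.84 ± 0.33 FPKM; SD, n = 3 each), stood at about the level of Vldlr. Lrp1 had the lowest value of the list, -0.18 (SE 0.15), and Lrp11 the highest, 0.12.

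Inside the cell, 21 of 26 signalling genes were tested, 18 higher and 3 lower (median 0.092), where 80.6% of all tested genes were higher. Cfl1, the actin-severing target at the end of the cascade, was most abundant at 140 ± 22 and 155 ± 10 FPKM (SD, n = 3 each), followed by the Cdk5 activator gene Cdk5r1 at 13.2 ± 1.8 and 13.6 ± 0.8 FPKM. Cdk5 had the largest difference, 0.22, and the kinase gene Gsk3b the lowest, -0.047. Dab1, the adaptor of both receptors, was below the minimum, with wild-type values of 0.252, 0.172 and 0.252 FPKM and heterozygous values of 0.166, 0.198 and 0.223 FPKM, which overlapped. Of 16 genes for lipoprotein carriers and cholesterol efflux, 10 were tested, 9 higher and 1 lower (median 0.11). Lcat, the enzyme that esterifies cholesterol on lipoproteins, stood at 20.1 ± 3.8 and 22.3 ± 3.7 FPKM and Apod at 10.5 ± 2.5 and 13.04 ± 2.3 FPKM (SD, n = 3 each), the latter with the largest difference, 0.32 (SE 0.19). Abca7 had the only lower mean (-0.049). Apoc1, a neighbour of Apoe in the genome, stood at 0.368 ± 0.041 and 0.335 ± 0.035 FPKM, and Apoc4 was listed at 0 in every library.

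**Figure D5:**
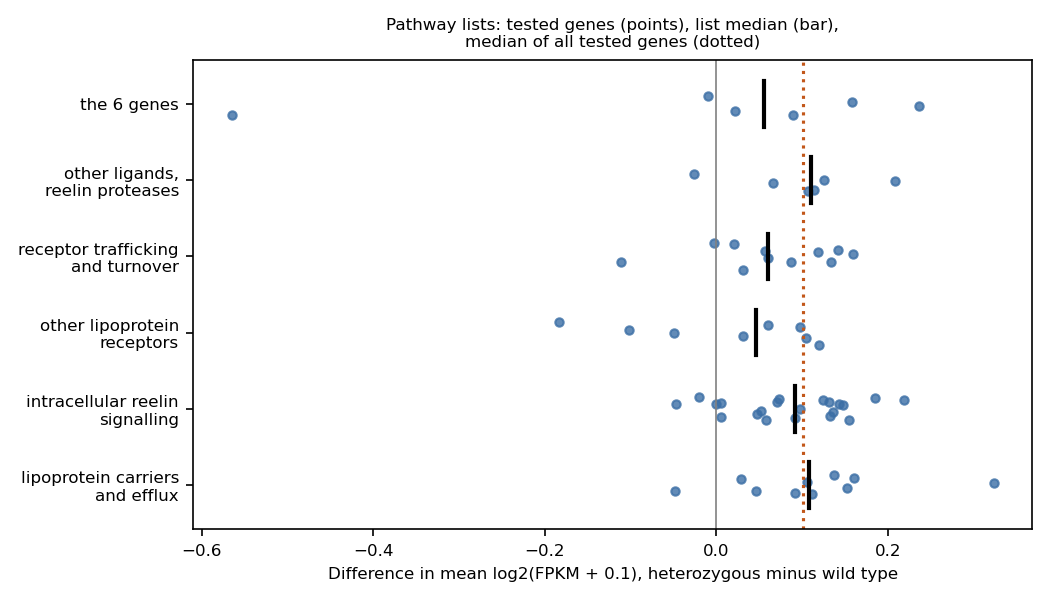
Heterozygous minus wild-type mean of log2(FPKM + 0.1) for every tested gene in the 6-gene family and 5 pathway lists (points), the median of each list (bar) and the median of all tested genes (dotted line, 0.10). Reln lies at -0.57, and every gene of the 5 lists lies between -0.18 and 0.32.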

How the data were processed

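Cerebellar RNA-seq covered 3 wild-type and 3 heterozygous libraries, with groups and replicate numbers as in the titles. The unit is FPKM as deposited by the authors, 1 library per file. Per the submitters' processing notes and the labels' protocols, the kit was stranded and sequencing single-end, reads of mitochondrial and ribosomal origin were removed, TopHat2 with Bowtie aligned the rest to mm10, and Cufflinks gave the gene levels; for the annotation release and the strand setting, nothing is given in the sources used here. The authors' own test used Cuffdiff 2.1.1, per the labels' protocols, and was not used here. FPKM divides by library size, so an RNA that takes many reads shifts all other genes.

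In heterozygous replicate 2, 40 values read as spreadsheet dates (Cdk5r2 among the pathway genes) and were left out. Whole reads could not be recovered: at most 10.1% of low values of 4261 single-transcript genes came within 3% of a whole number of reads, so no count test was run, and depths and read numbers are approximate. The 8619 genes whose mean reached 0.5 FPKM, all 6 members among them, were tested on log2(FPKM + 0.1) with limma 3.58.1 (R 4.3.3; trended prior variance), group as the only term and Benjamini-Hochberg adjustment; log2 values understate the change of low genes. The residual 4 degrees of freedom of each gene were joined by 15.3 from the trend. Ratios were tested by exact permutation of libraries (scipy 1.17.1). Positions, identifiers and transcript lengths come from GENCODE M21 (GRCm38), where 97.1% of genes matched 1 position. Named genes were the members, the 3 most alike genes of each, and in each list the 2 most abundant genes and the largest difference in each direction, Dab1, Ttr and the most abundant gene of a marker list; other genes (Spon1, Thbs1, Adamts3, Mylip, Apoc1, Apoc4, Lrp3, Rap1b, Folr1, Aqp4) were chosen after their values were seen. Members, lists, filter and pseudocount were chosen with earlier results of these data known.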

Additional observations from a re-analysis of the deposited data

How the results depend on the processing

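The Reln difference stayed negative in all 16 alternatives that could test it (-0.67 to -0.26, the latter with a pseudocount of 1) and Lrpap1 stayed positive in all 17 (0.037 to 0.32); neither passed in any, and Reln falls out of the test at a minimum of 1 FPKM. Without 1 library each, values ran from -0.63 to -0.50 for Reln, 0.11 to 0.31 for Lrpap1, -0.12 to 0.12 for Vldlr, -0.085 to 0.061 for Lrp8, -0.030 to 0.35 for Apoe and -0.12 to 0.31 for Clu. Vldlr turned negative with median-of-ratios scaling (-0.096), quantile normalization (-0.087), the glial covariate (-0.097), without wild-type replicate 2 (-0.12) and without heterozygous replicate 2 (-0.044). Clu did so in the same settings (-0.031, -0.084, -0.12, -0.12 and -0.085), Apoe with the glial covariate (-0.015) and without wild-type replicate 2 (-0.030). Lrp8 turned positive with the choroid plexus covariate (0.011), without wild-type replicate 3 (0.061) and without heterozygous replicate 1 (0.047) or 2 (0.0085). Without library 2 of both groups, an alternative chosen after seeing the data, Vldlr was at -0.19, Apoe at -0.14 and Clu at -0.29, with 24 genes called. The Vldlr to Lrp8 log2 ratio difference, 0.033, ran from -0.054 to 0.15 without 1 library each, negative without either replicate 2; no other ratio turned.

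No gene was called in the fit as reported, 4 at a minimum of 1 FPKM, 2 with no filter on low values and 2 to 41 without 1 library each (35, 2 and 30 without wild-type replicates 1, 2 and 3; 29, 41 and 12 without heterozygous replicates 1, 2 and 3); the cause was not tested. With the replicate number as a block 27 were called, none of the 6 genes, and Reln stood at -0.57 (limma adjusted p = 0.86). Deviations from the group means did not pair the libraries by number: those of same-numbered libraries correlated at -0.24, -0.44 and 0.16. Wild-type replicate 1 followed heterozygous replicate 2 (0.42), and wild-type replicate 2 followed heterozygous replicate 1 (0.42). Such deviations depend on each other within a group and also hold library height. They cannot show whether same-numbered libraries shared a batch. Counting error limits Reln and Lrp8 most.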
